A study of Mus musculus with 2 samples.

Results

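The genes described here encode 6 digestive enzymes of the intestinal brush border: the 4 disaccharidase genes Sis, Lct, Mgam and Treh, and the 2 intestinal alkaline phosphatase genes Alpi and Akp3. They were chosen by name with no threshold on measured values, though earlier results of these data were known. Each is represented by its brightest probe set annotated to exactly 1 gene symbol. All 6 were measured among 17305 genes, and each had 1 such probe set. The graft was small intestinal epithelium of EGFP-transgenic C57BL6 mice, expanded in culture for 7 days as organoids (epithelial cultures that hold stem cells), delivered into the colonic lumen of C57BL6 recipients and collected 4 weeks later. The reference was normal colonic epithelium of a C57BL6 control mouse. Both epithelia were cut from tissue sections with a laser, 4.33 ng of total RNA of each was amplified and labelled with biotin, and each was hybridised to a single array. The specimen with the best RNA integrity was taken for each group, so there is 1 array per group, no difference has a replicate check, and no test was made. Ages and sexes are not given in the labels. EGFP is stated for the donors of the graft only. Ungrafted small intestine was not analysed here, so region of origin and grafting cannot be told apart as the basis of any difference.

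The brush border is the carpet of microvilli on absorptive enterocytes. Disaccharidases are anchored there with their active sites facing the lumen and split dietary sugars into monosaccharides, which hexose transporters then carry into the cell. Intestinal alkaline phosphatases are held on the same membrane by a glycosylphosphatidylinositol (GPI) anchor and remove phosphate groups from nucleotides, lipids and bacterial lipopolysaccharide. Sucrase-isomaltase is a classical marker of the small intestinal enterocyte, and lactase is the disaccharidase of suckling mammals, which declines after weaning.

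The values are log2 expression levels as deposited, and every difference is the graft value minus the control colon value. The graft array spans 4.19 to 13.37 and the control colon array 4.22 to 13.46, with a Pearson r of 0.94 between them over 24074 probe sets, which are not independent replicates. No detection call comes with them. The 20th percentile of each array, 4.75 in the graft and 4.74 in the control colon, is used here as a mark below which signal cannot be separated from background. The median over all gene values, 5.48, is the level that the higher of a gene's values had to reach for the gene to be counted. In these data the only measure of technical error is the disagreement between different probe sets of one gene. Such probe sets read the same amplified RNA on the same arrays. Error from dissection, amplification and labelling is therefore not included in it, and the full technical error is unknown. For 586 genes with 2 probe sets at or above the median level, the graft minus control colon differences of these probe sets disagreed with an SD of 0.48. For 169 genes with both probe sets below that level the SD was 0.22. No member has a second probe set, so none could be checked in this way.

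All 6 genes had a higher value in the graft, as did 43.5% of all 17305 genes, and the differences of Mgam and Lct were small (0.34 and 0.28). Alpi, Sis and Akp3, 3 of the 6 and 3 of the 4 that reached the level to be counted, were at least 2-fold higher. Among all 9392 genes counted, 3.55% were higher in the graft by that margin and 5.68% lower. Alpi and Sis passed 4-fold as well, which 1.10% of the counted genes did upwards and 1.37% downwards. Over the 6 genes the median difference was 1.11, against 0 over all 17305 genes. Mgam alone reached the median level on both arrays. Sis, Alpi and Akp3 reached it in the graft only, and Lct and Treh on neither array. In the graft 0 of the 6 values lay below the 20th percentile, and on the control colon array those of Sis, Lct, Treh and Alpi did.

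**Figure D1:**
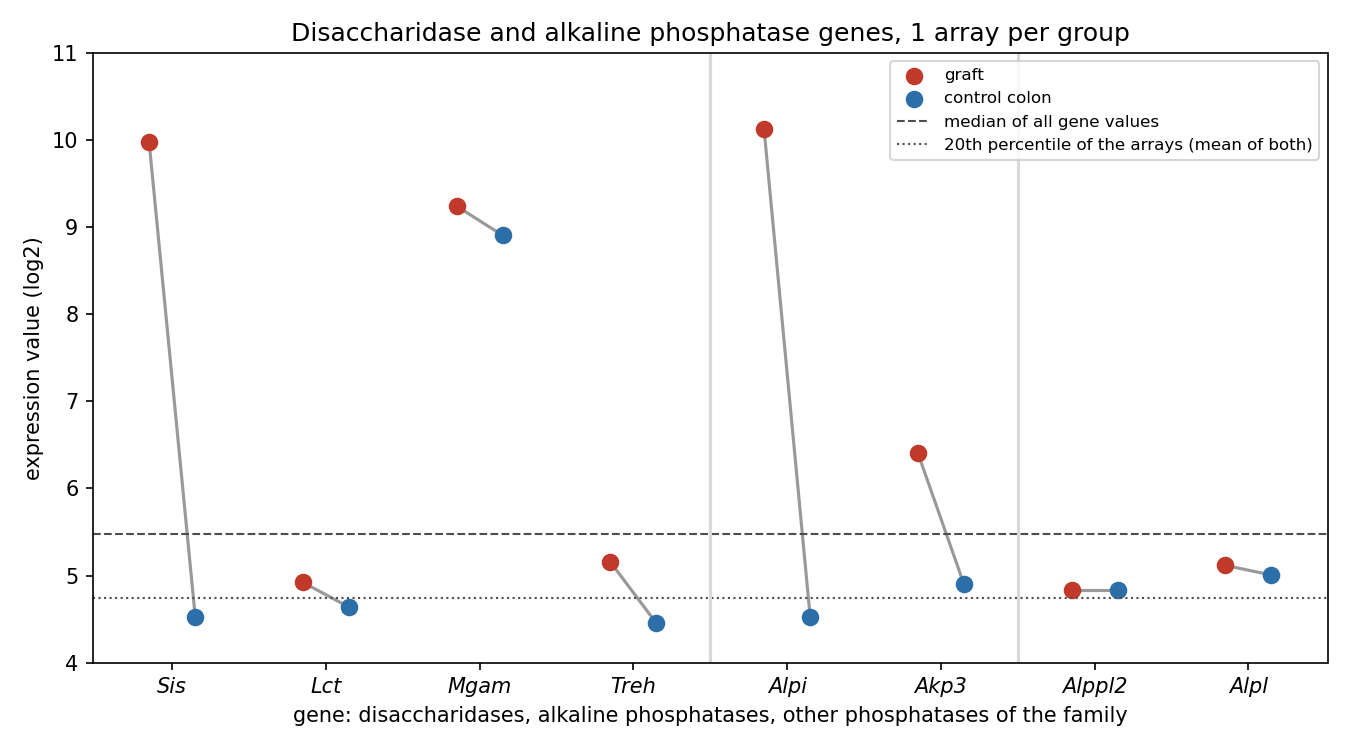
Log2 expression value of each gene in the graft (red, left) and the control colon (blue, right), 1 array per group, for the 4 disaccharidase genes, the 2 intestinal alkaline phosphatase genes and the other phosphatase genes Alppl2 and Alpl. Lines join the values of one gene, the dashed line is the median of all gene values and the dotted line the 20th percentile of the arrays. The lines of Sis and Alpi run from far above the dashed line in the graft to below the dotted line in the control colon, whereas both ends of the Mgam line stay far above the dashed line.

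Sucrase-isomaltase, Sis (probe set 10498659, Entrez gene 69983), which splits sucrose and branch points of starch, had a value of 9.97 in the graft and 4.52 in the control colon. The graft value stood at percentile 96.8 of its array and the control colon value at percentile 5.37. The difference was 5.45. Since the control colon value cannot be separated from background, neither the size of the fold nor the gene's rank is determined. With values below the 20th percentile raised to it, Sis was 37.7-fold higher in the graft, against 43.8-fold as deposited.

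Maltase-glucoamylase, Mgam (probe set 10537509, Entrez gene 232714), which releases glucose from starch fragments and is a close relative of sucrase-isomaltase, had a value of 9.24 in the graft and 8.91 in the control colon. The percentile was 95.4 in the graft and 94.4 in the control colon. The difference of 0.34 was smaller than the SD of 0.48 between probe sets. Signal of both genes was therefore high in the graft, and in the control colon that of Mgam was high and that of Sis near the lower end of the array. Levels of different probe sets are not on one scale, so the contrast rests on the difference of each gene between the arrays.

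Lactase, Lct (probe set 10357418, Entrez gene 226413), the enzyme of milk sugar, had a value of 4.92 in the graft and 4.64 in the control colon. Both lay below the median level, at percentile 29.5 in the graft and 13.9 in the control colon. Among the genes below that level on both arrays, 8.02% had an absolute difference at least as large as its 0.28. Trehalase, Treh (probe set 10584787, Entrez gene 58866), which splits the fungal and insect sugar trehalose, had a value of 5.15 in the graft (percentile 40.1) and 4.45 in the control colon (percentile 2.06). Its difference of 0.70 exceeded the SD of 0.22 between dim probe sets, and 0.505% of the genes below the median level on both arrays differed by as much. It did not reach 2-fold, and it became 0.42 when values below the 20th percentile were raised to it. For both genes an absence of RNA cannot be told apart from a level under the reach of the probes.

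The alkaline phosphatase Alpi (probe set 10356367, Entrez gene 76768), which mouse nomenclature calls global intestinal alkaline phosphatase, had a value of 10.12 in the graft and 4.52 in the control colon. The percentile was 97.1 in the graft and 5.40 in the control colon, and the difference was 5.60. As for Sis, the control colon value lies below the 20th percentile, so the size of the fold is not determined. It was 41.8-fold with values below that percentile raised to it, against 48.6-fold as deposited. Akp3 (probe set 10348131, Entrez gene 11648), the duodenal intestinal alkaline phosphatase of the mouse, had a value of 6.41 in the graft (percentile 73.0) and 4.90 in the control colon (percentile 29.2). Its difference of 1.51 was 2.85-fold. With the floor at the 20th percentile the difference of Alpi was 5.39. The floor could not change the 1.51 of Akp3, whose values lie above it on both arrays. Both differences were above the SD of 0.48 between probe sets.

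Other genes of the alkaline phosphatase family were near equal on both arrays. Alppl2, the embryonic alkaline phosphatase, had exactly the same value on both arrays, 4.84. Alpl, the tissue-nonspecific alkaline phosphatase of bone, liver and kidney, had 5.12 in the graft and 5.01 in the control colon. Both stayed below the median level. The sequences of Alpi, Akp3 and Alppl2 are alike and their transcripts may bind each other's probes to an unknown extent, so the share of each gene in the Alpi and Akp3 values is uncertain. The same holds for Sis and Mgam to the extent that their probes match both.

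Relatives of the disaccharidases that act outside the brush border were also near equal, with 1 exception among 4 measured genes. Gaa, the lysosomal acid alpha-glucosidase, had 5.94 in the graft and 6.02 in the control colon, and Ganab, a glycoprotein-processing glucosidase subunit of the endoplasmic reticulum, had 7.46 in the graft and 7.34 in the control colon. Lctl, a lactase-like gene, lay below the 20th percentile on both arrays, at 4.66 in the graft and 4.60 in the control colon. Klb, whose product beta-klotho has a lactase-like fold and serves as a co-receptor for fibroblast growth factors, had 4.47 in the graft, below the 20th percentile, and 5.90 in the control colon, so it was lower by a fold that is not determined. Of 9 lysosomal glycosidases, 0 were 2-fold apart, with a median difference of -0.28, and Gla had the same value of 6.01 on both arrays.

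**Figure D2:**
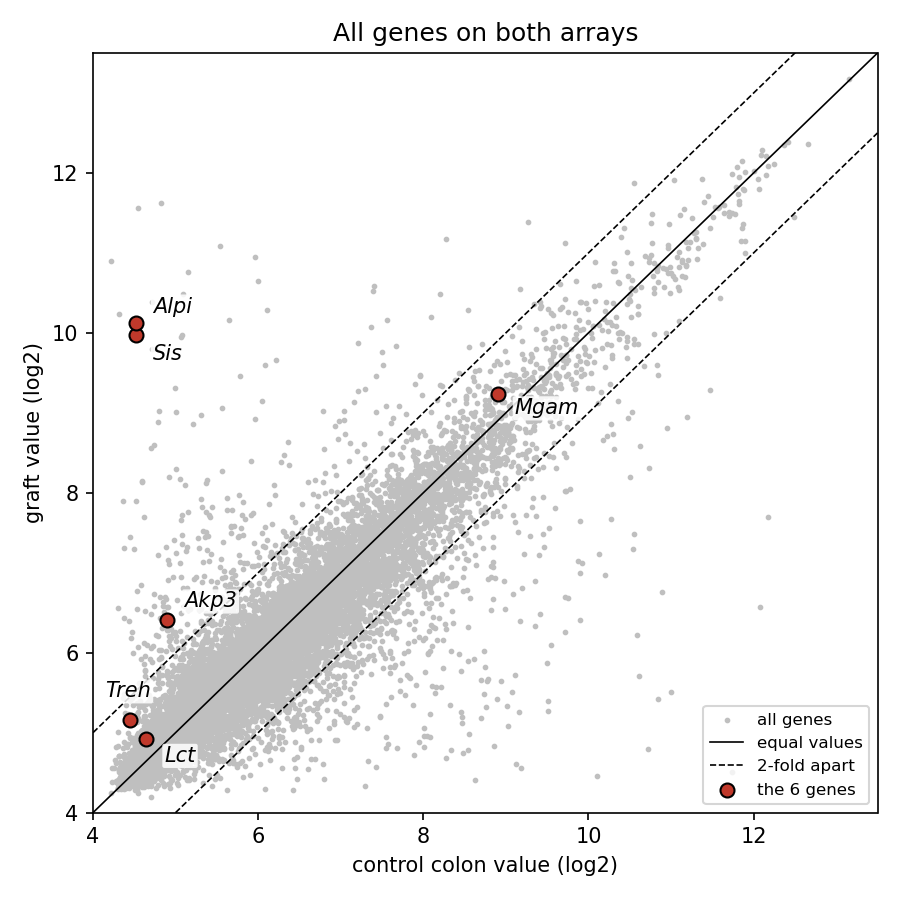
Log2 values of all 17305 genes on the control colon array (horizontal axis) and the graft array (vertical axis), with the 6 genes in red. The solid line marks equal values and the dashed lines a 2-fold difference. Alpi and Sis lie together at the upper left, Mgam lies beside the line of equal values at a high level, and Lct and Treh lie in the dense lower corner.

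Alpi, Akp3 and Alppl2 are neighbours on chromosome 1 in the RefSeq annotation. The 250 bases before the start site are shown for Sis and Alpi, which differed most, for Mgam, the relative of Sis with a difference of 0.34, and for Akp3 and Alppl2, the neighbours of Alpi. The sequences are from RefSeq (GRCm38.p6), 5′ to 3′ on the strand of the gene, and positions are counted backwards from the last base before the start, which is -1. Capitals mark matches, on either strand, to GATAA (GATA factors), GTTAAT (part of the HNF1 site), CAAAGTCCA (HNF4), TTTATNG (Cdx2 type) and CACCC (Klf type). Sis lies at chr3:72967864-72968113, minus strand, Mgam at chr6:40628581-40628830, plus strand, Alpi at chr1:87101607-87101856, minus strand, Akp3 at chr1:87124704-87124953, plus strand, and Alppl2 at chr1:87089929-87090178, minus strand.
Sis: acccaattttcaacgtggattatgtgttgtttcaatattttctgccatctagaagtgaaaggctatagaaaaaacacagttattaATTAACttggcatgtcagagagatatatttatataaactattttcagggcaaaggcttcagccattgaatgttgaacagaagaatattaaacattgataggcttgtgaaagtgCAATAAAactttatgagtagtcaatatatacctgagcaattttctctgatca
Mgam: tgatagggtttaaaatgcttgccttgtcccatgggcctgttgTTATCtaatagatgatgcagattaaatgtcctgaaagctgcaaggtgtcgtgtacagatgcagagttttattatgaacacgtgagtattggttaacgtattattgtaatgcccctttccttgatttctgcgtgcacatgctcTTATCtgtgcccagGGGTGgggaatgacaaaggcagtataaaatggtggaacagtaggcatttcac
Alpi: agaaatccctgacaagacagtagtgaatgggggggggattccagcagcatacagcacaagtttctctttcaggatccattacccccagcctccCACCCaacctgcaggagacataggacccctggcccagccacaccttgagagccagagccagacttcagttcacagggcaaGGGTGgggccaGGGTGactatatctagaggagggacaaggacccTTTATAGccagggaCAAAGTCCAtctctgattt
Akp3: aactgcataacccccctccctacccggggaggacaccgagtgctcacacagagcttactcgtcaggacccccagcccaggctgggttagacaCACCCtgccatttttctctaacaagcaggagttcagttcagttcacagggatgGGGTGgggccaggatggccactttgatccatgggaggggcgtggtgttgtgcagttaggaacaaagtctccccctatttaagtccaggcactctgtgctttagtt
Alppl2: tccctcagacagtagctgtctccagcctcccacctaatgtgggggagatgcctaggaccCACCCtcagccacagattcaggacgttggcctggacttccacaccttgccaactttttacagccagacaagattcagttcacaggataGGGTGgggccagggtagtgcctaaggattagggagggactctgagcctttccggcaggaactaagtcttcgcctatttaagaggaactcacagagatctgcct

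The promoters of the 2 genes with the greatest differences held partly different letters. The Sis window had 1 match to the HNF1 letters from -165 to -160 and 1 to the Cdx2 letters from -52 to -46, both on the strand opposite to the gene, and no match to the GATA, HNF4 and Klf letters. The Alpi window had the HNF4 letters from -19 to -11, the Cdx2 letters from -33 to -27 and the Klf letters at 3 places. Mgam had 2 GATA matches and 1 Klf match. Akp3 and Alppl2 each had 2 Klf matches and none of the other motifs. Of the promoters not printed, Lct had 3 GATA matches, and Treh had 1 HNF4 match, from -71 to -63, and 1 Klf match. No match of one motif overlapped that of another. Of 32851 RefSeq promoter windows of the same length, 22.6% held the GATA letters, 6.43% those for HNF1, 0.384% those for HNF4, 9.81% those of the Cdx2 type and 52% those of the Klf type. Only the Cdx2 letters, of these 5 motifs, were present in both the Sis and the Alpi window. These matches describe letters in the window and were not measured as binding.

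The promoters of the 3 neighbouring phosphatase genes resembled one another more than the remaining pairs did. Pairwise identity in a global alignment was 53.6% to 57.9% over the 3 pairs among Alpi, Akp3 and Alppl2, against 45.4% to 51.5% over the 18 other pairs of the 7 windows. The longest runs common to all 3 have 13 bases and occur in the same order in each, ttcagttcacagg followed by gggtggggccagg, and the second holds a Klf match on the opposite strand. The first run starts at -94 in Alpi, -122 in Akp3 and -119 in Alppl2, and the second at -77, -105 and -103. The differences of Alpi, Akp3 and Alppl2 were 5.60, 1.51 and 0, and any part of the shared runs in them was not tested. The 0 of Alppl2 comes from equal values of 4.84 below the median level, so it is no measured lack of difference.

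The genes nearest to Sis and Alpi by their pair of values were found over the 2 arrays, using the straight-line distance on the log2 scale. For Alpi the nearest gene was Retnlb, a secreted protein of goblet cells, at 10.07 in the graft and 4.50 in the control colon, a distance of 0.059. Sis came next (0.15) and then the chitinase-like gene Chil4 (0.24). For Sis the order was Retnlb (0.10), Alpi (0.15) and the crypt stem cell marker Olfm4 (0.26). Only 2 points define each pattern, and the control colon values of all of these genes lay below the 20th percentile, so nearness says little beyond a high graft signal and a low control colon signal.

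The transporters that take up the sugars released by disaccharidases were higher in the graft in part. Among 6 hexose transporter genes the median difference was 0.57, and 1 gene passed 2-fold upwards and 0 downwards. Slc2a2, the glucose and fructose carrier GLUT2, was 2.84-fold higher, at 6.12 in the graft and 4.61 in the control colon, below the 20th percentile there. The fructose carrier Slc2a5 had 6.27 in the graft and 5.30 in the control colon, and the sodium-glucose cotransporter Slc5a1 had 8.76 in the graft and 7.89 in the control colon. These differences of 0.97 and 0.88 exceeded the SD of 0.48 between probe sets but not 2-fold. Slc2a7, Slc5a4a and Slc5a4b had differences of 0.26, 0.08 and -0.37 and were below the median level on both arrays.

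A list of 8 measured genes held enzymes of sugar metabolism, the sugar-responsive factor Mlxipl and its target Txnip, and 3 of them passed 2-fold upwards in the graft and 1 downwards. Of the enzymes, Tkfc and Khk did so upwards and none downwards. Tkfc, a triokinase of fructose breakdown, was 3.50-fold higher, at 7.23 in the graft and 5.42 in the control colon. Khk, the ketohexokinase that begins it, was 2.25-fold higher at 6.79 in the graft, against 5.62 in the control colon, and Mlxipl, the sugar-responsive transcription factor ChREBP, 2.20-fold higher at 6.87 in the graft, against 5.73 in the control colon. Txnip, a gene induced by glucose, was 2.32-fold lower at 9.15 in the graft, against 10.36 in the control colon. Galt, of galactose breakdown, had a difference of -0.49. The list median was 0.34.

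Other hydrolases of the brush border did not follow Sis and Alpi as a group. The median over 10 brush-border peptidase genes was 0.10, and 0 passed 2-fold upwards and 2 downwards. Mep1a, the alpha subunit of the metalloprotease meprin, was 16.3-fold lower at 4.83 in the graft and 8.86 in the control colon, and the aminopeptidase-type gene Naaladl1 had 4.61 in the graft, below the 20th percentile, and 6.03 in the control colon. Xpnpep2 and Mme, both peptidases, had differences of 0.77 and 0.55. The median over 7 other surface phosphohydrolases and lipid hydrolases was -0.19, and 1 passed 2-fold upwards and 0 downwards. This was Enpp3, an ectonucleotide pyrophosphatase, 12.5-fold higher at 8.85 in the graft and 5.21 in the control colon. The ectonucleotidases Entpd8 and Entpd1 had differences of -0.63 and -0.55.

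**Figure D3:**
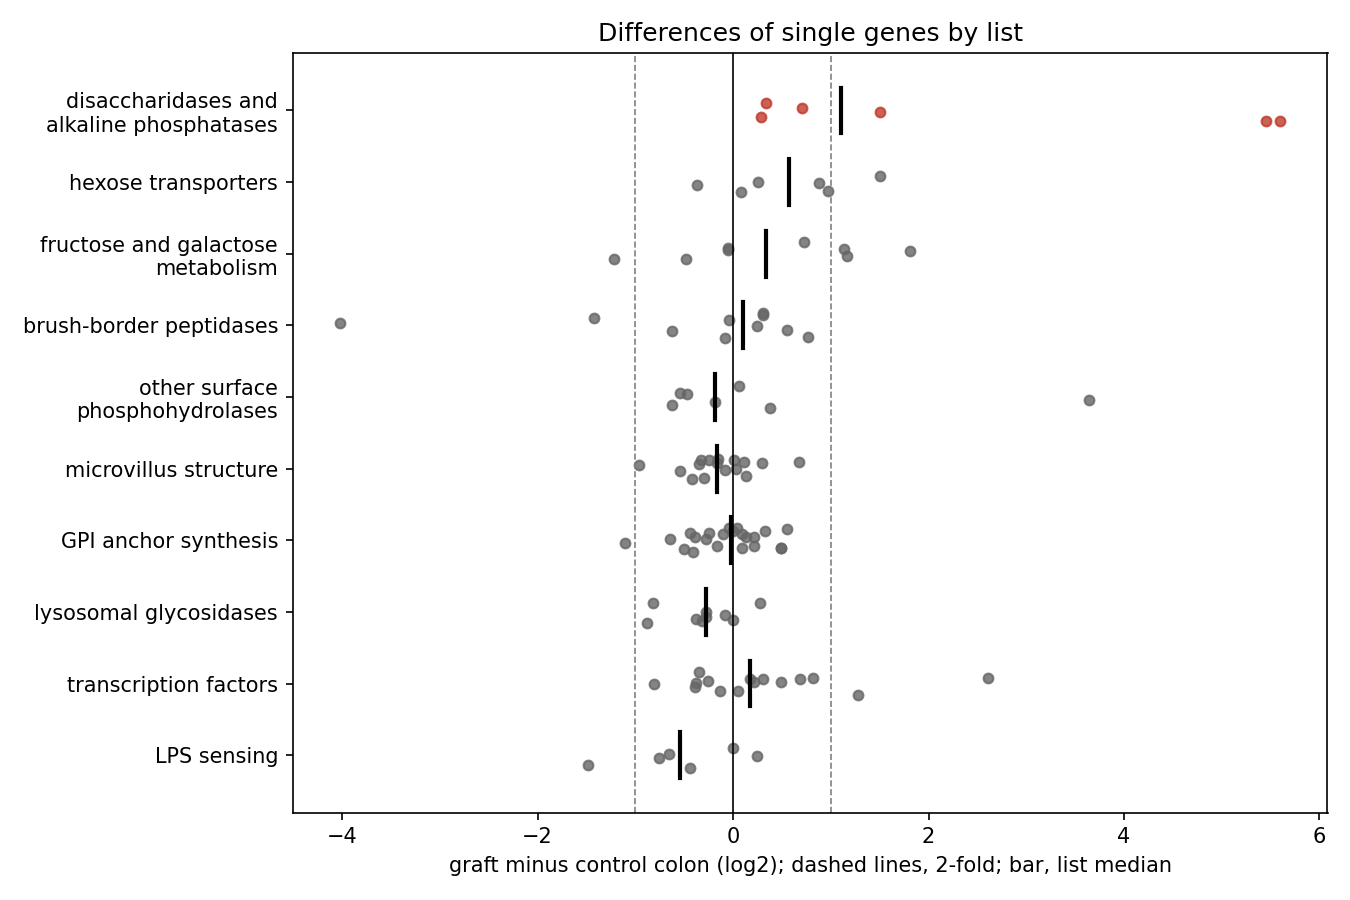
Difference of each gene, graft minus control colon on the log2 scale (horizontal axis), for the 6 genes (red) and for 9 other lists (grey). Each point is a gene, the vertical bar is the list median, and dashed lines mark 2-fold. Sis and Alpi stand at 5.45 and 5.60, Enpp3 at 3.65 among the surface phosphohydrolases and Mep1a at -4.03 among the peptidases, while microvillus genes all stay within 2-fold.

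Genes for the structure that carries these enzymes had similar values in both samples. Of 16 genes of the microvillus core and intermicrovillar adhesion, 0 were 2-fold apart, with a median difference of -0.16 and a range from -0.97 to 0.68. The gene closest to 0 was Fscn1, a dim actin-bundling gene, with 0.0096. Over 22 genes for synthesis and attachment of the GPI anchor that holds the phosphatases and trehalase, the median was -0.019, and 0 passed 2-fold upwards and 1 downwards. Pigh was 2.16-fold lower at 5.97 in the graft and 7.08 in the control colon, while Pigq and Pigm had differences of 0.55 and 0.49. Of 6 genes of lipopolysaccharide sensing, a substrate of intestinal alkaline phosphatase, 1 was 2-fold lower and 0 were higher, and the median was -0.54. The lower gene was the receptor Tlr4, 2.79-fold lower at 5.76 in the graft, against 7.24 in the control colon, and its co-receptor Cd14 had a difference of 0.25.

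Transcription factors that act on these genes or on enterocyte identity were mostly near equal. The median over 15 measured factors was 0.17, and 2 passed 2-fold upwards in the graft and 0 downwards. Gata4, a factor of proximal gut identity, had 7.76 in the graft and 5.15 in the control colon, 6.09-fold apart, and Gata5 was 2.43-fold higher at 6.20 in the graft, against 4.92 in the control colon. Foxa2 and Klf4 had differences of -0.81 and -0.39. Among factors singled out after their values were seen, Cdx2, a known activator of Sis, had a difference of 0.82, Hnf4a of 0.06 and Hnf4g of 0.49.

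The marker lists were chosen with earlier results of these data known, so they are no independent check of sample identity. By these markers both samples were epithelium, and they differed in markers of gut region. Of 10 general epithelial markers, 0 were 2-fold apart, with values from 8.38 to 11.98 in the graft and from 8.93 to 11.74 in the control colon, and the keratin Krt8 was closest to equal, with a difference of 0.24. Of 10 small intestinal enterocyte markers, 8 passed 4-fold upwards in the graft, and of 10 markers of colonic absorptive cells, 9 were at least 2-fold lower. The enterocyte markers were led by Fabp1, Apoa4, Apoa1 and Npc1l1, with differences of 5.67, 5.61, 5.55 and 4.01, and Cyp3a11 had -0.11. The colonic markers were led by Car1, Tgm3, Cyp2c55 and Saa1, with -7.23, -5.93, -5.64 and -5.49. The graft values of Car1 and Cyp2c55 and the control colon value of Fabp1 lay below the 20th percentile, so the sizes of these differences are not determined. Of 10 leukocyte markers, only 3 reached the median level and 0 were 2-fold apart. Their mean value was 5.31 in the graft and 5.19 in the control colon, with Ms4a1 closest to equal at -0.038. Of 8 neutrophil markers, 3 reached the median level. S100a8 and S100a9 were higher, with differences of 2.01 and 1.36. Their control colon values lay below the 20th percentile, so the sizes of these differences are not determined. Ly6g was lower, at 5.42 in the graft and 10.84 in the control colon, the largest difference of the list. In the control colon 5 of the 8 markers lay below the 20th percentile, and no marker besides Ly6g reached the median level. The list median was 0.16. The list means of 5.34 in the graft and 5.44 in the control colon depend strongly on Ly6g. Of 5 plasma cell markers, Igha was at least 2-fold higher (2.71), Ighm and Sdc1 had -0.59 and -0.47, and the means were 7.02 in the graft and 6.53 in the control colon. Of 10 fibroblast and smooth muscle markers, Lum was 2-fold lower (-1.76), Col1a2 had 0.15, and the means were 5.91 in the graft and 6.33 in the control colon. Of 7 endothelial markers, only Egfl7 reached the median level, and it was at least 2-fold higher (1.23). Pecam1 and Emcn had -0.29 and -0.15. Of 4 neuron and glia markers 0 reached the median level, so none could be counted as 2-fold apart. Gfap was equal on both arrays, and the means of the endothelial and the neuron and glia lists were between 4.98 and 5.11 on both arrays. Pancreatic digestive enzymes could reach the gut as debris. Of 13 listed, 6 were measured and only 2 reached the median level, so few could be counted. Of these enzymes 0 were higher and 1 was lower, Cela1, with a value of 6.15 in the graft and 8.24 in the control colon. Ctrb1, below the median level on both arrays, had a difference of 0.091. The part of these cell types in the results was not tested. In such dissected tissue, a greater share of enterocytes and more RNA per enterocyte cannot be told apart.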

How the data were processed

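Total RNA of 1 graft and 1 control colon sample was measured on single-channel oligonucleotide arrays. The authors' deposited table holds a log2 value per probe set and array (24074 probe sets). For their summarisation and normalization, the method is not given in sources used here, and the log2 scale was read from their range. Whether arrays were centred stays unknown; medians were 5.44 in the graft and 5.43 in the control colon, and genes were not centred over these arrays. Probe sets were named through the platform annotation (18904 with 1 symbol, 1330 with several and 3840 with none). Entrez identifiers of all 6 genes matched the RefSeq table of GRCm38.p6, as did their promoters.

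The brightest probe set stood for a gene. Differences, counts and medians were computed with Python 3.11.15, numpy 2.4.6 and pandas 2.3.3, and promoters were aligned with Biopython 1.88 (match 1, mismatch -1, gap opening -2, gap extension -0.5). The counting was run on simulated data with shifts well past 2-fold, placed only in bright genes. This checks the counting steps only and says nothing on shifts in dim genes such as Lct and Treh. With 1 array per group no p-value is given, and the number of arrays limits the precision. Members and the 21 other gene lists were chosen with earlier results of these data known. The genes named are all members, their relatives and the hexose transporters. Of each other list they are up to 4 genes at least 2-fold apart, up to 2 in the opposite direction and, where none is 2-fold apart, the gene nearest to 0. Outside this rule, Cdx2, Hnf4a and Hnf4g were named after their values were seen, and Lbp for its equal values. For genes at least 4-fold apart the 3 nearest patterns are named. Protein sequences were not used here. Alternatives were the mean over probe sets, quantile normalization, subtracted array medians, a floor at the 20th percentile and no level filter.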

Additional observations from a re-analysis of the deposited data

How the results depend on the processing

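Of the 37 alternative values computed for the 6 single differences, their median, the count of members at least 2-fold higher and the count of all such genes none changed sign, and 36 moved by less than the spread between probe sets (0.22 for Lct and Treh, 0.48 otherwise) or, for a count, within 1.5 times. The exception was Treh, at 0.42 with the floor at the 20th percentile against 0.70 as deposited. The member count stayed at 3 and the median lay between 0.96 with the floor at the 20th percentile and 1.11. All genes at least 2-fold higher numbered 324 with probe sets averaged, 329 with the floor, 331 with array medians subtracted, 333 as deposited, 334 without the level filter and 355 with quantile normalization. Averaging probe sets could not change any member, since each has 1. The floor could not change Mgam or Akp3, whose values lie above the 20th percentile on both arrays. Subtracting array medians shifts every difference by the same small amount. A part of the 36 was thus fixed in advance and is no check of the result. No paired analysis was possible because each group has 1 array. None of these alternatives bears on variation between animals or on the amplification of the RNA, and a fold against a control colon value near the lower end of the array is limited by background.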

Other observations

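The exactly equal values of Alppl2 on both arrays were no single case. Of 24074 probe sets, 2910 (12.1%) had the same value in the graft and the control colon to the last deposited digit. The share fell with the level: over 4 bins of probe sets of about equal number by mean value, from dim to bright, it was 23.2%, 16.3%, 6.93% and 1.91%. In the lists used here it also held for Gla, Lbp, 3 of 6 pancreatic enzymes, 2 of 8 neutrophil markers and 1 of 4 neuron and glia markers, and for none of Sis, Lct, Mgam, Treh, Alpi and Akp3.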
